A study of Mus musculus with 6 samples.

Results

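The p53 target genes described here are Cdkn1a, Mdm2, Ccng1, Bbc3, Bax, Gadd45a, Sesn1, Sesn2, Trp53inp1 and Phlda3, which are 10 of the 53421 genes in the table of counts. They are a list of known targets set by name, with earlier results of these data known. Each was matched to a single gene of the GRCm38 annotation (GENCODE M21), and all 10 passed the filter on low counts with at least 84 counts in every library. In cultured cerebellar granule cells (GCs), 4 of them were lower in every library named as YTHDF2 knockdown (KD) than in every control library. These were Cdkn1a, at 36.0% of the control level, Bbc3 at 54.7%, Sesn2 at 57.7% and Bax at 65.1%. Over all genes tested, 13.4% were lower without overlap between the groups. In edgeR, 0 of the 10 had an adjusted p under 0.05. The groups follow the library names, and the sample titles give them the other way round. The means of the other 6, Mdm2, Ccng1, Gadd45a, Sesn1, Trp53inp1 and Phlda3, lay between 92.7% and 109% of the control level, and their libraries overlapped between the groups.

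p53, encoded by Trp53 in the mouse, is a transcription factor that is kept at a low level by the ubiquitin ligase MDM2 and is stabilized by DNA damage and other stress. It binds DNA as a tetramer and switches on genes that stop the cell cycle, start apoptosis through mitochondria, limit growth signaling and oxidative damage, and feed back on p53 itself. Neurons that have left the cell cycle keep this pathway, and in them the pro-apoptotic targets are the best known. YTHDF2 is a reader protein that binds N6-methyladenosine (m6A) in mRNA and is known for speeding the decay of bound transcripts.

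The libraries came from GCs, the small excitatory neurons of the cerebellar cortex, dissociated from C57BL/6 mice and labelled as postnatal day 8. Lentivirus delivered the Ythdf2 hairpin for 3 libraries (shYthdf2) and the control hairpin for another 3 (shCtrl), and both groups went through puromycin selection, so that no group was without virus or drug. The names of the shYthdf2 libraries all carry the same hairpin number, and the numbers of the replicates in both groups are 1, 2 and 4. The groups follow these library names. The sample titles and the genotype label give the groups the other way round, and every direction reported here would be inverted if the titles were right. Ythdf2 itself was lower in each library named as knockdown, with values given in the next paragraph. The study describes 3 biological replicates per group, but the labels do not say which cultures they came from. In bulk RNA, fewer cells of a type and less RNA per cell cannot be told apart.

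Totals were 17646408 to 19533010 counts for shYthdf2 and 17246821 to 21546595 for shCtrl. Ythdf2 had 501, 402 and 501 normalized counts in shYthdf2 replicates 1, 2 and 4 and 618, 841 and 628 in shCtrl, where normalized counts are counts scaled by TMM to a common library size. Thus the groups did not overlap, and 67.3% of the shCtrl level of Ythdf2 remained. The log2 fold change was -0.57 (SE 0.16, edgeR adjusted p = 0.125), and DESeq2 gave an adjusted p of 0.0406. The replicate 2 libraries of both groups stood apart from replicates 1 and 4. Deviations from the group means correlated at 0.361 between the replicate 2 libraries and at -0.314 to -0.248 between replicate 2 of either group and replicates 1 or 4 of the opposite group (Pearson's r across genes, which are not independent). The negative values follow on average from the positive one, because deviations within a group cancel out for each gene. Without replicate 2 of either group, the log2 fold change of Ythdf2 was -0.32, beside -1.06 within replicate 2 and -0.30 and -0.33 within replicates 1 and 4, so the depth of the knockdown depended on replicate 2. For the p53 targets and the other genes named, the value without replicate 2 is given where it turned the sign, moved by over 1.5 times or is a result of its own. What sets replicate 2 apart is not given in the sources used here.

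Among the 10 p53 targets, 4 reached an unadjusted p under 0.05 in edgeR's quasi-likelihood test, all of them lower in shYthdf2. Over the 17214 genes tested, 20.1% reached that threshold, 10.6% lower and 9.50% higher. After Benjamini-Hochberg adjustment over all genes tested, 0 of the 10 had an adjusted p under 0.05 in edgeR, against 0.604% of all genes (0.360% lower and 0.244% higher). DESeq2 put 4 of the 10 past the same threshold, again Cdkn1a, Bbc3, Bax and Sesn2, against 7.67% of all genes, or 4.52% that were lower. Groups that did not overlap were seen for 4 of 10 targets, each lower in shYthdf2, and for 26.0% of all genes, of which 13.4% were lower. The median log2 fold change of the targets was -0.02, beside 0.01 over all genes tested, because 5 had a negative and 5 a positive value.

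**Figure D1:**
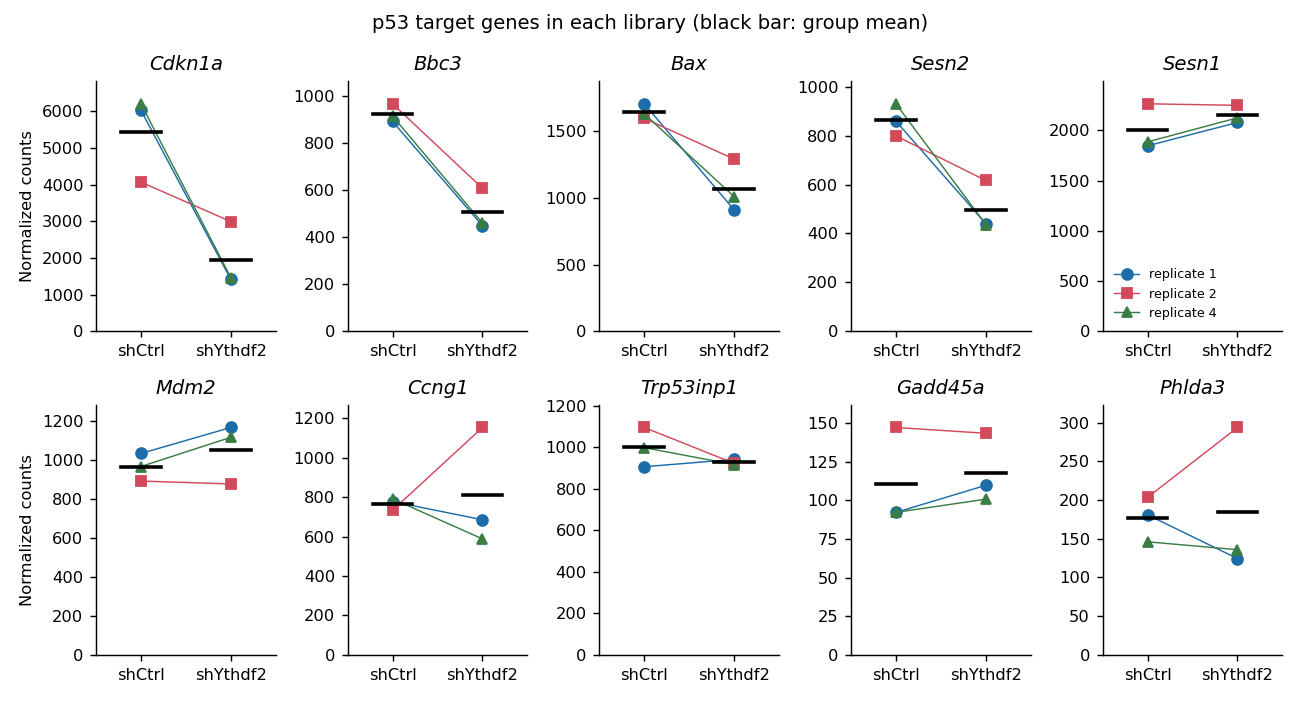
TMM-normalized counts of the 10 p53 target genes (vertical axes, each from 0) in the 3 shCtrl and 3 shYthdf2 libraries, with lines that join libraries of the same replicate number and black bars at the group means. For Cdkn1a, Bbc3, Bax and Sesn2 all shYthdf2 libraries lie below all shCtrl libraries, with the smallest drop of Cdkn1a in replicate 2, and for the other 6 genes the groups overlap.

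To show what the targets share in sequence, the windows from 250 bases before to 50 bases after their annotated starts were searched on both strands for the 10-base element to which p53 binds, of which a full binding site holds a pair. The windows are those of RefSeq for GRCm38.p6, and a window was given for 9 of the 10 genes (not for Trp53inp1). An exact 10-base element was found for 6 of these 9 genes, against 9.55% of the 27025 genes with a window. A pair of elements with at most 13 bases between them and at most 1 mismatch in all was found for Cdkn1a, Ccng1 and Bax, against 1.24% of genes. The stretches with matches are printed 5′ to 3′ on the strand of the gene, with the exact 10-base elements in capitals, because they hold both targets that were lower in shYthdf2 and targets that were not.
Cdkn1a, chr17:29090886-29090967, plus strand: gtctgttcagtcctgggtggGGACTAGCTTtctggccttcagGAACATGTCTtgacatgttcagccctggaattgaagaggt
Bax, chr7:45467070-45467130, minus strand: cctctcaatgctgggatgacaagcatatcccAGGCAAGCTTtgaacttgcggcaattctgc
Ccng1, chr11:40755442-40755501, minus strand: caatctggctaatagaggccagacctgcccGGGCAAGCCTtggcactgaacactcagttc
Mdm2, chr10:117710915-117710964, minus strand: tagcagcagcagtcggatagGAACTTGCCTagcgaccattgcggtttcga
Gadd45a, chr6:67037418-67037467, minus strand: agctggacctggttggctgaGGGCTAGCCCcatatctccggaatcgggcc
Sesn1, chr10:41887246-41887295, plus strand: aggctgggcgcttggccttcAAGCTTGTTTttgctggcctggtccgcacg

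In the Cdkn1a stretch the elements in capitals form a pair with 12 bases between them and 0 mismatches. The second of them also opens the pair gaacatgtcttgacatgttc (chr17:29090928-29090947), which has 0 bases between its elements and 1 mismatch. The exact element ends 41 bases before the upstream annotated start of Cdkn1a and 2831 bases before the downstream start. Of the 4 genes that were lower in shYthdf2, Cdkn1a and Bax held an element, and the windows of Bbc3 and Sesn2 had no match. Of the targets whose groups overlapped, Ccng1, Mdm2, Gadd45a and Sesn1 held an element, and the window of Phlda3 had no match. Hence windows with a match lay on both sides, and matches within these windows did not separate the genes that were lower from the rest. Sequence outside the windows was not searched, so a window without a match does not show that its gene lacks a site. A match is a description of these letters only, and p53 binding was not measured.

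The targets that act on the cell cycle came first. Cdkn1a (ENSMUSG00000023067, chr17:29090976-29100727) encodes p21, the inhibitor of cyclin-dependent kinases through which p53 stops cells in G1. It had 1414, 2990 and 1464 normalized counts in shYthdf2 replicates 1, 2 and 4 and 6028, 4070 and 6204 in shCtrl. All 3 shYthdf2 libraries were below all 3 shCtrl libraries, with the replicate 2 libraries of the groups closest to each other. The mean was 1956 ± 896 (SD, n = 3) in shYthdf2 and 5434 ± 1185 in shCtrl. Between the groups this gave a log2 fold change of -1.47 (SE 0.32, 95% interval -2.22 to -0.73, edgeR adjusted p = 0.0749). DESeq2 gave an adjusted p of 0.000167. Its log2 fold change ran from -2.09 to -1.29 over 15 alternative settings, and the adjusted p in them from 3.59e-15 to 0.306. The value of -2.09 was the one without replicate 2 of either group.

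Ccng1 (ENSMUSG00000020326, chr11:40748552-40755311) encodes cyclin G1, which takes part in the feedback on p53 through MDM2. It had 685, 1153 and 588 normalized counts in shYthdf2 and 777, 733 and 791 in shCtrl. Replicate 2 of shYthdf2 was the highest of the 6 libraries and the other shYthdf2 libraries were the lowest, so that the groups overlapped. Its log2 fold change was 0.08 (95% interval -0.48 to 0.64, edgeR adjusted p = 0.887), and it turned to -0.30 without replicate 2 of either group (edgeR adjusted p = 0.00341). The direction of Ccng1 thus rested on replicate 2.

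Gadd45a (ENSMUSG00000036390, chr6:67035096-67037457) encodes a small stress protein that binds cell cycle and repair factors. It had 110, 143 and 101 normalized counts in shYthdf2 and 92.3, 147 and 92.3 in shCtrl, with replicate 2 the highest in both groups. As a log2 fold change this was 0.09 (95% interval -0.52 to 0.71, edgeR adjusted p = 0.871), and 0.19 without replicate 2. Gadd45a overlaps the gene E230016M11Rik on the opposite strand, which had up to 83 counts in a library while Gadd45a had as few as 84. The strand setting of the counting is not given in the sources used here, so reads of this pair cannot be told apart and the value of Gadd45a is uncertain.

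The targets that act in apoptosis differed among themselves. Bbc3 (ENSMUSG00000002083, chr7:16308393-16318205) encodes PUMA, a BH3-only protein that frees BAX and BAK to open mitochondria. It had 450, 609 and 461 normalized counts in shYthdf2 replicates 1, 2 and 4 and 893, 969 and 916 in shCtrl. The highest shYthdf2 library was below the lowest shCtrl library, and the gap between the groups was wider than the spread within either. The means were 506 ± 88.9 (SD, n = 3) and 926 ± 38.7. For Bbc3 the log2 fold change was -0.87 (SE 0.14, 95% interval -1.20 to -0.54, edgeR adjusted p = 0.0527). With the replicate number as a block the adjusted p was 0.045 in edgeR, which made Bbc3 the single p53 target of the 10 that fell past the adjusted threshold there, against 1.35% of all genes, or 0.819% that were lower. Over the 15 alternatives the log2 fold change stayed between -1.03 and -0.79 and the adjusted p ran from 8.03e-09 to 0.286.

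Bax (ENSMUSG00000003873, chr7:45461697-45466898) encodes the protein that forms pores in the outer mitochondrial membrane. It had 911, 1292 and 1010 normalized counts in shYthdf2 and 1708, 1598 and 1632 in shCtrl. The shCtrl libraries lay close together, and replicate 2 of shYthdf2 was the nearest to them without reaching them. Means were 1071 ± 198 (SD, n = 3) and 1646 ± 55.9. Bax thus had a log2 fold change of -0.62 (SE 0.14, 95% interval -0.95 to -0.29, edgeR adjusted p = 0.0824), with a range of -0.80 to -0.52 over the 15 alternatives and adjusted p of 1.18e-08 to 0.335. Bax overlaps the annotated gene Gm45808, which had 0 counts in every library.

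Trp53inp1 (ENSMUSG00000028211, chr4:11156431-11174379) encodes a stress protein of the nucleus that promotes p53 phosphorylation and cell death. It had 941, 922 and 916 normalized counts in shYthdf2 and 906, 1095 and 997 in shCtrl. The shYthdf2 values lay within the shCtrl range, and the log2 fold change was -0.11 (95% interval -0.36 to 0.14, edgeR adjusted p = 0.606), and -0.04 without replicate 2. Phlda3 (ENSMUSG00000041801, chr1:135766119-135769136) encodes a pleckstrin-homology protein that keeps AKT from the membrane. Its normalized counts were 124, 294 and 136 in shYthdf2 and 181, 203 and 146 in shCtrl. As for Ccng1, replicate 2 of shYthdf2 was the highest library and the other shYthdf2 libraries were the lowest. The log2 fold change of Phlda3 was 0.06 with a wide interval of -0.74 to 0.87 (edgeR adjusted p = 0.938), and it was -0.34 without replicate 2 of either group (edgeR adjusted p = 0.0692).

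The sestrins limit mTORC1 signaling and oxidative stress, and they did not move together. Sesn2 (ENSMUSG00000028893, chr4:132492032-132510501) encodes the sestrin that also senses leucine and answers to ATF4 as well as to p53. It had 440, 617 and 436 normalized counts in shYthdf2 and 860, 799 and 930 in shCtrl. Each shYthdf2 library was below each shCtrl library, and replicate 2 had the smallest gap. The means were 498 ± 103 (SD, n = 3) and 863 ± 65.7. Sesn2 had a log2 fold change of -0.79 (SE 0.16, 95% interval -1.17 to -0.41, edgeR adjusted p = 0.0679), with a range of -1.03 to -0.71 over the 15 alternatives and adjusted p of 9.73e-09 to 0.306.

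Sesn1 (ENSMUSG00000038332, chr10:41809935-41908424), a p53 and FoxO target, had 2080, 2250 and 2126 normalized counts in shYthdf2 and 1847, 2266 and 1886 in shCtrl. Its groups overlapped through the shCtrl library of replicate 2, and the log2 fold change was 0.11 (95% interval -0.15 to 0.36, edgeR adjusted p = 0.630). The interval of Sesn1 lay wholly above that of Sesn2, which is a description of both genes and not a test between them.

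Mdm2 (ENSMUSG00000020184, chr10:117688875-117710758) encodes the ubiquitin ligase that p53 induces and that degrades p53. It had 1166, 876 and 1115 normalized counts in shYthdf2 and 1033, 891 and 966 in shCtrl. The replicate 2 libraries were the lowest of their groups, and the groups overlapped. Mdm2 had a log2 fold change of 0.13 (95% interval -0.19 to 0.44, edgeR adjusted p = 0.639), so that the interval holds no loss of Mdm2 below -0.19 on the log2 scale.

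Within replicate numbers, 4 of the 10 targets were lower in shYthdf2 in all 3 replicates and 0 were higher in all 3, beside 26.9% and 27.0% of all genes tested. The log2 ratio of Cdkn1a was -2.09 in replicate 1, -0.44 in replicate 2 and -2.08 in replicate 4. The ratios of Bbc3 were -0.99, -0.67 and -0.99, those of Bax -0.91, -0.31 and -0.69, and those of Sesn2 -0.97, -0.37 and -1.09. For each of these 4 genes the ratio of replicate 2 was thus the nearest to 0. Ccng1 was lower in replicates 1 and 4 (-0.18 and -0.43) and higher in replicate 2 (0.65), and Phlda3 showed the same order (-0.54 and -0.11 against 0.53). Mdm2 and Sesn1 were higher in replicates 1 and 4 (0.18 and 0.21 for Mdm2, 0.17 and 0.17 for Sesn1) and near 0 in replicate 2 (-0.02 and -0.01). Gadd45a gave 0.25, -0.04 and 0.13, and Trp53inp1 gave 0.06, -0.25 and -0.12. The median log2 ratio over the 10 targets was -0.36 in replicate 1, -0.14 in replicate 2 and -0.28 in replicate 4, beside 0.01, 0.00 and 0.00 over all genes tested.

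**Figure D2:**
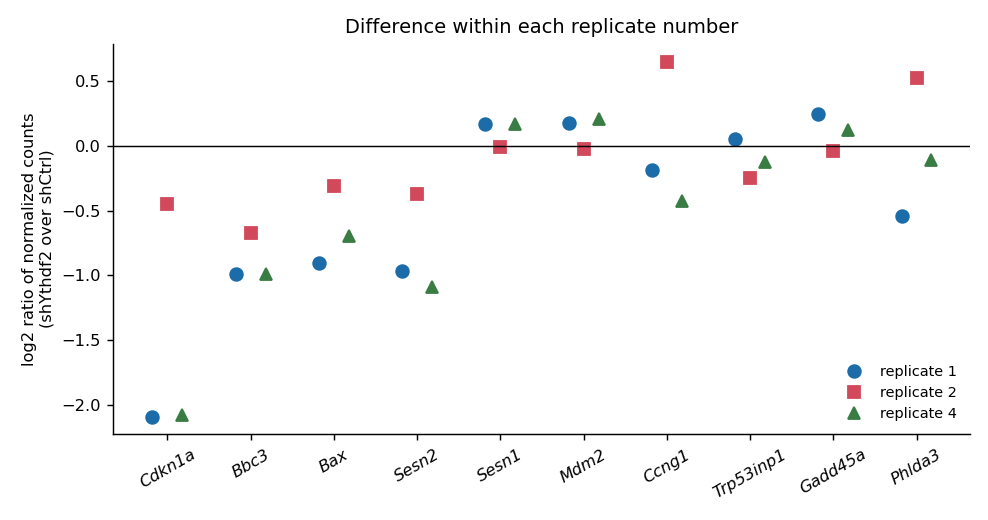
Log2 ratio of normalized counts, shYthdf2 over shCtrl, within each replicate number for the 10 p53 targets (1 point per replicate). Cdkn1a, Bbc3, Bax and Sesn2 are below 0 in all 3 replicates, with replicate 2 nearest to 0, while Ccng1 and Phlda3 are above 0 in replicate 2 alone.

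Without replicate 2 of either group, which leaves 2 libraries against 2, 7 of the 10 targets had an edgeR adjusted p under 0.05. This share stands beside 52.7% of all genes tested in that fit, 27.0% being lower. At an unadjusted p under 0.05 there were 8 of the 10, beside 57.6% of all genes (29.3% lower), and these shares apply to the lists of other genes in that fit as well. Cdkn1a, Bbc3, Bax, Sesn2 and Ccng1 were lower, and Mdm2 and Sesn1 were higher by a log2 fold change of 0.19 and 0.17. Cdkn1a had the lowest log2 fold change of the 10 in that fit, at -2.09. With replicate 2 of shCtrl alone left out, and with replicate 2 of shYthdf2 alone left out, the same 4 genes as in DESeq2 passed the adjusted threshold in edgeR, against 18.3% and 4.70% of all genes (8.84% and 2.82% lower). A batch term for replicate 2 also put these 4 genes past it, against 22.1% of all genes (11.6% lower). With any single library of replicate 1 or 4 left out, 0 genes in the whole table passed it.

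**Figure D3:**
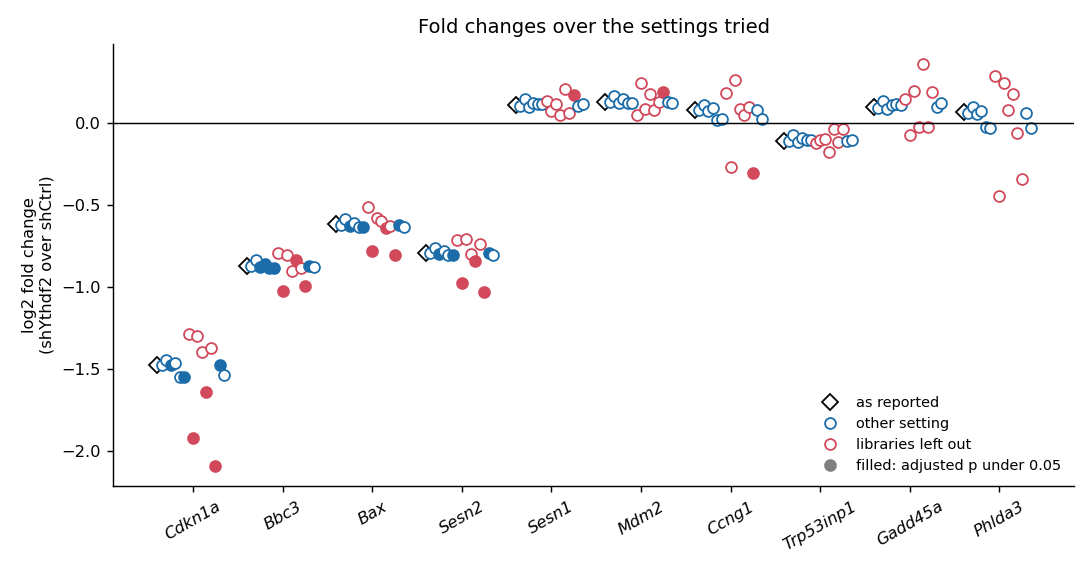
Log2 fold change (shYthdf2 over shCtrl) of the 10 p53 targets as reported (black diamonds), under other normalizations, filters, models and tools (blue) and with libraries left out (red), filled where the adjusted p was under 0.05. Cdkn1a, Bbc3, Bax and Sesn2 stay below 0 and Sesn1 and Mdm2 above 0 throughout, while Ccng1, Gadd45a and Phlda3 take both signs.

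To compare the levels of the targets with each other, normalized counts were divided by the length of the union of exons (RPKM). In shCtrl, Cdkn1a was the highest with 80.6 ± 17.6 RPKM (SD, n = 3) and Gadd45a was the lowest with 3.31 ± 0.949. Between them came Bax (55.1), Sesn1 (26.5), Bbc3 (23.0), Sesn2 (13.1), Ccng1 (11.5), Mdm2 (9.99), Trp53inp1 (8.14) and Phlda3 (5.98), as mean RPKM in shCtrl. In shCtrl the ranges of all neighbors in this order were apart. Under shYthdf2 the order changed: Bax came first with 35.8 ± 6.62 RPKM, followed by Cdkn1a with 29.0 ± 13.3 and Sesn1 with 28.5 ± 1.17. Only the neighbors Sesn1 and Bbc3 were apart there, and the ranges of all other neighbors overlapped. Sesn2 went from the fifth to the seventh place, with 7.55 ± 1.56 RPKM in shYthdf2. With the longest transcript as the length, Mdm2 moved to the fifth place in shCtrl with 16.1 RPKM, and the other genes kept their order.

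Related genes that are not classical p53 targets were set beside the members. Of 11 paralogs fixed by name, 10 were tested and Phlda2 was too low. In edgeR 0 paralogs were lower and 1 was higher at an unadjusted p under 0.05, beside 10.6% and 9.50% of all genes, and 0 passed the adjusted threshold. The replicate block gave 2 lower and 1 higher, where 31.6% of all genes passed (16.3% lower), and 4 were lower and 2 higher without replicate 2. The other CDK inhibitors of the family had log2 fold changes of -0.10 (Cdkn1b, SE 0.09, edgeR adjusted p = 0.568) and -0.06 (Cdkn1c, SE 0.22, adjusted p = 0.910), and their intervals did not overlap with that of Cdkn1a. Bak1, which forms mitochondrial pores like Bax, had a log2 fold change of -0.32 (95% interval -0.69 to 0.06, edgeR adjusted p = 0.313), and this interval overlapped with that of Bax. Sesn3 had 3723, 3466 and 3716 normalized counts in shYthdf2 and 2204, 2806 and 2312 in shCtrl. All shYthdf2 libraries of Sesn3 were above all shCtrl libraries, and its log2 fold change was 0.57 (SE 0.12, 95% interval 0.30 to 0.84, edgeR adjusted p = 0.0663). The sestrins therefore had values in both directions, with Sesn2 lower, Sesn3 higher and Sesn1 overlapping.

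The remaining paralogs had overlapping groups. Log2 fold changes were 0.04 for Mdm4, 0.08 for Ccng2, -0.61 for Gadd45b, 0.15 for Gadd45g, -0.24 for Trp53inp2 and -0.29 for Phlda1. Their edgeR adjusted p-values ran from 0.429 for Trp53inp2 to 0.949 for Mdm4. The interval of Gadd45b was the widest of them, from -1.56 to 0.33. Without replicate 2, the log2 fold change was 0.37 for Ccng2 (edgeR adjusted p = 2.67e-06), -0.48 for Trp53inp2 (edgeR adjusted p = 2.11e-08), 0.27 for Gadd45g and 0.01 for Mdm4, and that of Cdkn1c turned to 0.22.

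**Figure D4:**
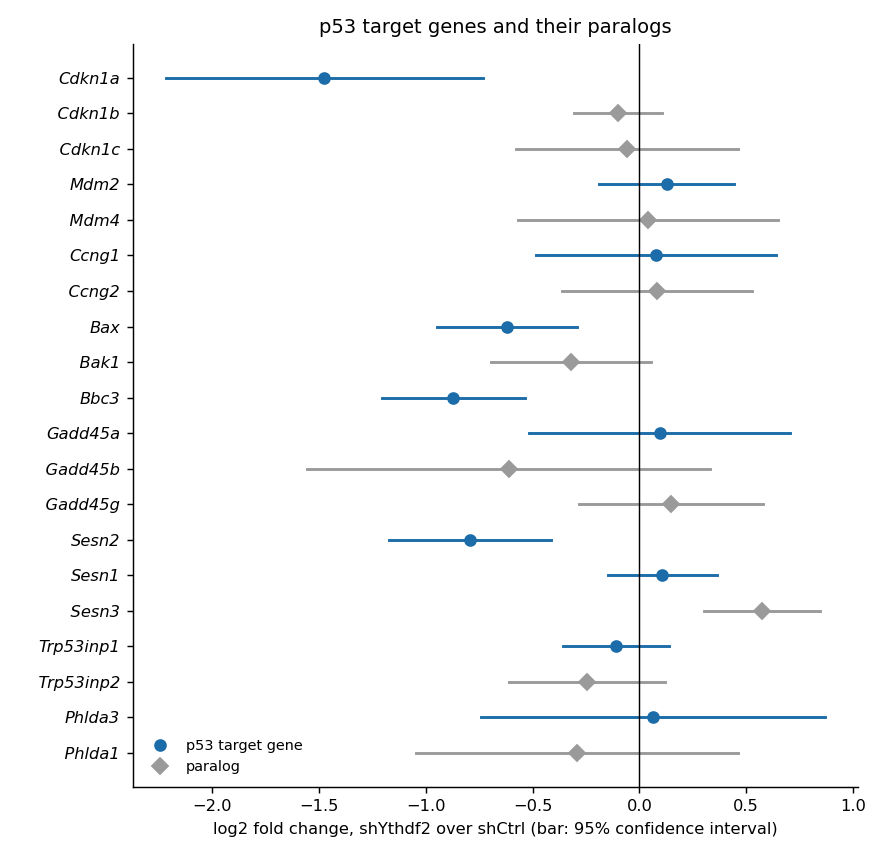
Log2 fold changes (shYthdf2 over shCtrl) with 95% confidence intervals from edgeR for the 10 p53 targets (blue circles) and their tested paralogs (grey diamonds, listed under the gene they resemble). The intervals of Cdkn1a, Bbc3, Bax and Sesn2 lie below 0, that of Sesn3 lies above 0, and all others include 0.

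p53 itself and its regulators were examined next. Trp53 had 417, 536 and 464 normalized counts in shYthdf2 and 538, 451 and 567 in shCtrl, and its groups overlapped. The log2 fold change of Trp53 was -0.14 (95% interval -0.48 to 0.21, edgeR adjusted p = 0.649). Its log2 ratio was -0.37 in replicate 1, 0.25 in replicate 2 and -0.29 in replicate 4, and without replicate 2 its log2 fold change was -0.33 (edgeR adjusted p = 0.00243). Mdm4, which blocks p53 activity, and Ppm1d, the phosphatase that ends p53 signaling, each had a log2 fold change of 0.04 (edgeR adjusted p = 0.949 and 0.891), and that of Ppm1d was 0.02 without replicate 2. Of 20 genes of the p53 family and its regulators, 18 were tested, and 2 were lower and 3 higher at an unadjusted p under 0.05 in edgeR, beside 10.6% and 9.50% of all genes. Their median log2 fold change was 0.02. The count of 5 became 0 with any single library of replicate 1 or 4 left out and 11 without replicate 2. Among genes of this list with a mean of at least 50 normalized counts, the largest values were those of Trp73 (-0.37, SE 0.14, edgeR adjusted p = 0.201), a p53 relative with roles in neurons, Sirt1 (0.32, SE 0.11, adjusted p = 0.170), a deacetylase that acts on p53, and Trp53bp1 (0.28, SE 0.09, adjusted p = 0.149), a DNA damage adaptor. These data hold RNA and say nothing of p53 protein or its modification.

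Beyond the members, 38 other known p53 targets had been listed, and 37 of them were tested. In edgeR 9 of the 37 (24.3%) were lower at an unadjusted p under 0.05, beside 10.6% of all genes, and 0 were higher, beside 9.50%. None passed the adjusted threshold in edgeR. The median log2 fold change was -0.17, beside 0.01 for all genes tested, with 24 values below and 13 above 0. The groups did not overlap for 11 genes that were lower and 1 that was higher, beside 13.4% and 12.6% of all genes. Without replicate 2, 21 were lower and 5 higher at the unadjusted threshold, and without replicate 4 of either group 5 passed it.

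Pmaip1, which encodes the BH3-only protein NOXA, had the lowest value. It had 27.2, 66.9 and 30.8 normalized counts in shYthdf2 and 317, 72.7 and 299.9 in shCtrl. Replicates 1 and 4 differed widely between the groups, and the replicate 2 libraries lay close together. Its log2 fold change was -2.45 (SE 0.60, edgeR adjusted p = 0.0969), and the log2 ratio within replicate 2 was -0.12. Without replicate 2 it was -3.41 (edgeR adjusted p = 1.48e-10). Btg2, an antiproliferative gene, had 414, 312 and 387 normalized counts in shYthdf2 and 1085, 442 and 1012 in shCtrl. Its groups were apart, with a log2 fold change of -1.19 (SE 0.32, edgeR adjusted p = 0.115).

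The other 7 targets at this unadjusted threshold are named after their values were seen. Gls2, a mitochondrial glutaminase, had a log2 fold change of -0.76 (edgeR adjusted p = 0.0883). Ei24, whose product sits in the endoplasmic reticulum, had -0.45 (edgeR adjusted p = 0.0715). Aen, a nuclease, Pvt1, a noncoding RNA, Plk3, a kinase, Ptp4a3, a phosphatase, and Rps27l, a ribosomal protein paralog, had values from -1.01 for Aen to -0.45 for Rps27l. In Aen the groups overlapped, because replicate 2 gave a log2 ratio of 0.28, and without replicate 2 its log2 fold change was -1.61.

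**Figure D5:**
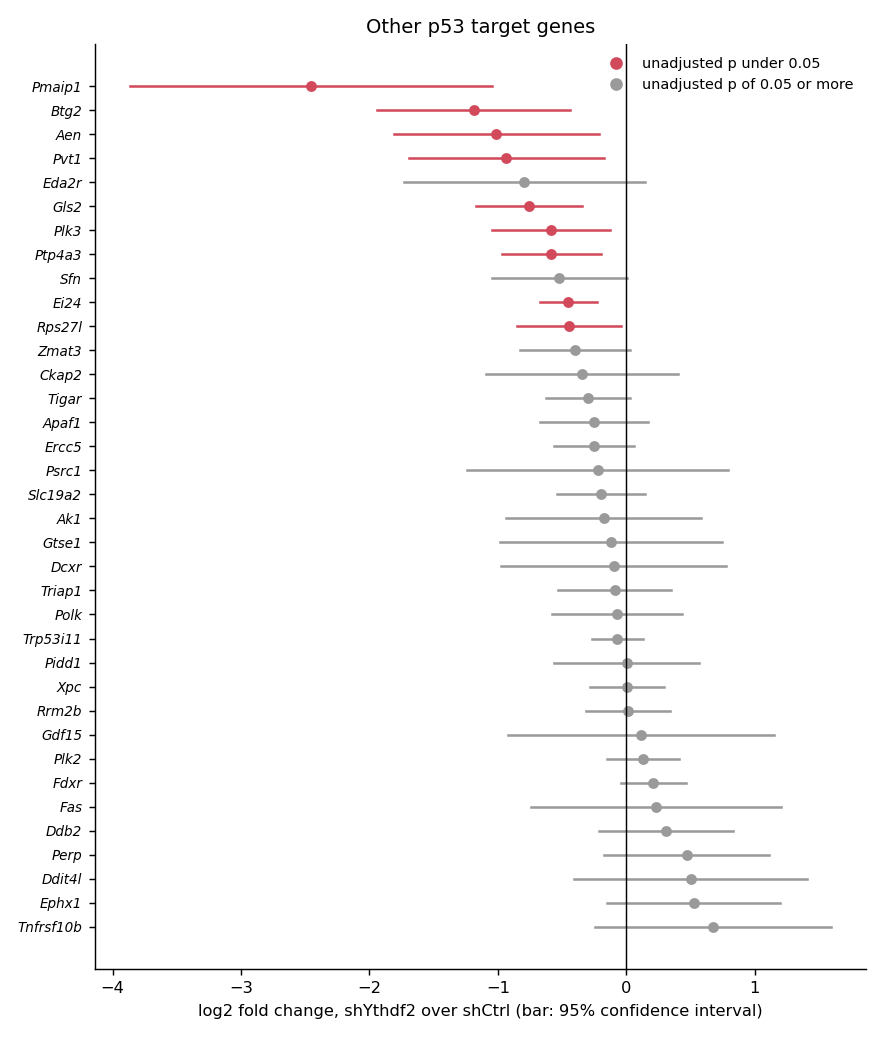
Log2 fold changes (shYthdf2 over shCtrl) with 95% confidence intervals from edgeR for 36 of the 37 other p53 target genes tested, in order of value. The 9 genes with an unadjusted p under 0.05 (red) all lie below 0, from Pmaip1 at -2.45 to Rps27l at -0.45, and the intervals of the other 27 (grey) include 0.

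Since Bbc3 and Bax work at mitochondria, the other genes of mitochondrial apoptosis were counted. Of 22 listed, 21 were tested, and 4 were lower and 1 was higher at an unadjusted p under 0.05 in edgeR (19.0% and 4.76%, beside 10.6% and 9.50% of all genes). The list mixes genes that promote and genes that oppose cell death, and these are named after their values were seen. Bmf, Bid and Diablo, which promote it, and Mcl1, which opposes it, were lower. Xiap, which blocks caspases, was higher. The replicate block gave 7 lower and 3 higher, and libraries left out gave 2 to 14 in all, with 2 without shYthdf2 replicate 1 or shCtrl replicate 4 and 14 without replicate 2. Bmf, a BH3-only protein like PUMA, had 253, 353 and 254 normalized counts in shYthdf2 and 497, 564 and 493 in shCtrl. Its groups were apart, and the log2 fold change was -0.85 (SE 0.17, edgeR adjusted p = 0.0640). With the replicate number as a block Bmf fell past the adjusted threshold, as Bbc3 did in that edgeR fit. Bok, a pore-forming relative of Bax, had a log2 fold change of -0.48 (edgeR adjusted p = 0.268) and of -0.81 without replicate 2, and Hrk, a BH3-only gene of neurons, had 0.41 (edgeR adjusted p = 0.449).

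Genes of the cell cycle that p53 is known to lower, in part through p21, were counted as well. Of 16 listed, 14 were tested, and in edgeR 0 were lower and 1 was higher at an unadjusted p under 0.05, beside 10.6% and 9.50% of all genes. The replicate block gave 1 lower and 4 higher, and libraries left out gave 0 to 6 in all, with 0 without replicate 1 or 4 of shYthdf2 and 6 without replicate 2. Their median log2 fold change was 0.26, with 10 values above and 4 below 0. Top2a, a topoisomerase of dividing cells, had a log2 fold change of 0.76 (95% interval -0.11 to 1.63, edgeR adjusted p = 0.300), with only 70.0 ± 6.58 normalized counts (SD, n = 3) in shYthdf2 and 41.2 ± 21.6 in shCtrl. Without replicate 2 it was 1.31 (edgeR adjusted p = 0.000292). E2f1, a transcription factor of S phase entry, had 0.36 (edgeR adjusted p = 0.288), and Mcm6, a replication helicase subunit, had -0.36 (adjusted p = 0.294).

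Markers of the cell types in the culture were summed as CPM, counts scaled by the library total, in each library. The 15 GC markers summed to 12258 to 12971 CPM in shYthdf2 and 12922 to 13053 in shCtrl, which makes them by far the highest of the lists. Few markers of other cell types passed the test, but most had a positive value. At an unadjusted p under 0.05, 1 of 10 oligodendrocyte lineage, 0 of 9 microglia and 1 of 12 vascular and fibroblast markers were higher in edgeR. Over all genes tested, 9.50% were higher at that threshold. Without replicate 2 of either group, 10, 9 and 8 of these markers were higher at it. Over all genes in that fit, 57.6% passed it in both directions together, and 29.3% passed it as lower. All 10 oligodendrocyte lineage markers had a positive log2 fold change (838 to 1098 CPM summed in shYthdf2, 309 to 1104 in shCtrl), as did 9 of 9 microglia markers tested (30.2 to 87.1 against 14.5 to 63.1) and 12 of 12 vascular and fibroblast markers tested (241 to 614 against 175 to 491). In shCtrl the highest of these sums were in replicate 2. Within replicate 2 the oligodendrocyte sum was 1098 CPM in shYthdf2 and 1104 in shCtrl, and the microglia sum was 30.2 and 63.1. Neither of these was higher in shYthdf2 there, but the vascular and fibroblast sum was, with 614 against 491. In replicates 1 and 4 the oligodendrocyte sum was 838 and 862 CPM in shYthdf2 and 322 and 309 in shCtrl. The microglia sum in these replicates was 80.7 and 87.1 against 16.7 and 14.5. The vascular and fibroblast sum in them was 241 and 244 against 178 and 175. Astrocyte and Bergmann glia markers were higher for 8 of 10 (559 to 577 against 441 to 680), GABAergic interneuron markers for 5 of 6 (400.2 to 483 against 334 to 365) and GC progenitor markers for 4 of 6 (292 to 295 against 298 to 343). Unipolar brush cell markers were lower for 4 of 5 (363 to 386 against 429 to 442), and Purkinje cell markers for 4 of 6 (39.7 to 58.9 against 49.8 to 52.2). No marker on these lists was at 0 in all 6 libraries. The 10 p53 targets summed to 439 to 588 CPM in shYthdf2 and 673 to 768 in shCtrl. The part of other cells in the values of the p53 targets was not tested.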

How the data were processed

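RNA-seq of cultured GCs, with 3 libraries for shYthdf2 and 3 for shCtrl, was re-analysed from the table of counts the authors deposited, which are whole-number read counts per gene without normalization. By the study's methods, the authors filtered reads, aligned them by HISAT and TopHat2 (GRCm38) and used HTSeq for counting. The submitters' processing notes name Bowtie 0.12.2 and mm9, which this differs from, and the gene IDs were matched to GRCm38 (52489 of 53421). Strand use in counting is not given in the sources used here.

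Genes were kept by filterByExpr (minimum count 10, minimum total 15), which left 17214 genes with 99.8% of the counts. edgeR 4.0.16 (R 4.3.3) was run with TMM and the quasi-likelihood test, without a block, and p-values were adjusted by Benjamini-Hochberg over all genes tested. The script was tested on simulated counts drawn independently for each library. These lacked the likeness between libraries of the same replicate number that is described below. Exact permutation of the libraries (two-sided) cannot go below p = 0.1 here, which Ythdf2, Cdkn1a, Bbc3, Bax and Sesn2 each gave. The p-values measure the spread between these libraries, and library totals of 17246821 to 21546595 counts limit the precision of low genes. RPKM used the TMM-scaled library size.

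The replicate numbers in the library names were checked as pairs: deviations from the group means correlated at 0.250, 0.361 and 0.305 for replicates 1, 2 and 4. Replicates 1 and 4 of opposite groups correlated at 0.147 and 0.123, so libraries of the same number were the most alike. The reported fit leaves this pairing out. With the replicate block, the edgeR adjusted p was 0.0757 for Cdkn1a, 0.0624 for Bax and 0.0609 for Sesn2. Alternatives were RLE size factors, library size alone, no filter, 10 counts in every library, the replicate block, a batch term for replicate 2, libraries left out, DESeq2 1.42.0 and limma-voom (limma 3.58.1). The members and all gene lists were chosen with earlier results of these data known. Named were all members, Ythdf2, Trp53, Mdm4, Ppm1d, the paralogs and, per list, genes past the adjusted threshold and the 3 largest absolute log2 fold changes with a mean of at least 50 normalized counts, except 1 gene that is counted in its list but not reported here. Motifs were searched with Python 3.11.15, and plots were drawn with matplotlib 3.10.9.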

Additional observations from a re-analysis of the deposited data

How the results depend on the processing

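Cdkn1a, Bbc3, Bax and Sesn2 were lower in shYthdf2 under all 15 alternatives, and Mdm2, Sesn1 and Trp53inp1 kept their signs. The sign reversed for Ccng1 without shYthdf2 replicate 2 (-0.27) and without replicate 2 of both groups (-0.30). It reversed for Gadd45a without shYthdf2 replicate 2 (-0.074), shCtrl replicate 1 (-0.03) or shCtrl replicate 4 (-0.02). For Phlda3 it reversed with the replicate block (-0.027), the batch term (-0.030) and limma-voom (-0.032) and without shYthdf2 replicate 2 (-0.45), shCtrl replicate 4 (-0.06) or replicate 2 (-0.34). With libraries left out, the highest values were 0.26 for Ccng1, 0.36 for Gadd45a and 0.28 for Phlda3. The causes were not tested. Genes past the adjusted threshold numbered 104 in the reported fit, 639 with no filter, 232 with the replicate block, 3799 with the batch term, 1321 in DESeq2, 24 in limma-voom and 0 to 9186 with libraries left out. Genes past the unadjusted threshold numbered 3461 as reported, 5446 with the block, 6807 with the batch term and 1986 to 10040 with libraries left out. Of the 10 p53 targets, 0 passed the adjusted threshold as reported, 4 with no filter, with the batch term and in DESeq2, 1 with at least 10 counts in every library and with the replicate block, and 0 to 7 with libraries left out. At the unadjusted threshold 4 to 8 targets passed with libraries left out, and their median log2 fold change ran from -0.36 to 0.0042. The other p53 targets past the unadjusted threshold ran from 5 to 26 with libraries left out. The replicate block changed the call of Bbc3 and of no other target. Each target had at least 84 counts in every library, and depth limits Gadd45a and Phlda3, the lowest of them, most.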

Other observations

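Target genes of ATF4, the transcription factor of the integrated stress response that also acts on Sesn2, were counted beside the p53 targets. All 20 listed genes were tested, and in edgeR 5 were lower and 1 was higher at an unadjusted p under 0.05, beside 10.6% and 9.50% of all genes. Their median log2 fold change was -0.14. The count of 6 ran from 4 to 15 with libraries left out, with 15 without replicate 2. The list holds Atf4 itself, which is named after its value was seen. Atf4 is among the 5 genes counted as lower (log2 fold change -0.33, edgeR adjusted p = 0.106), and its groups did not overlap. Ppp1r15a, which encodes the phosphatase subunit GADD34, had a log2 fold change of -1.11 (SE 0.28, edgeR adjusted p = 0.0988) with groups that did not overlap. Cebpb and Atf5, both transcription factors, had log2 fold changes of -0.71 (SE 0.34, edgeR adjusted p = 0.295) and -0.54 (SE 0.26, edgeR adjusted p = 0.290), and their groups overlapped. Without replicate 2 the log2 fold change of Atf5 was -0.99.

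Target genes of the FoxO factors, which act on Sesn1 and Sesn3, had values in both directions. Of 15 listed, 14 were tested, and in edgeR 3 were lower and 2 were higher at an unadjusted p under 0.05, beside 10.6% and 9.50% of all genes, and the median log2 fold change was -0.14. With libraries left out the count ran from 2 (without replicate 4 of shYthdf2 or replicate 1 of shCtrl) to 11 (without replicate 2). Irs2, an adaptor of the insulin receptor, had 1317 ± 215 normalized counts (SD, n = 3) in shYthdf2 and 2111 ± 340 in shCtrl (log2 fold change -0.68, SE 0.16, edgeR adjusted p = 0.0927), and its groups were apart. Bcl6, a transcriptional repressor, had a log2 fold change of -0.54 (SE 0.22, edgeR adjusted p = 0.222). Sesn3 is also on this list, as are Foxo1 and Foxo3, which encode FoxO factors. Foxo1, named after its value was seen, is among the 2 genes counted as higher (log2 fold change 0.53, edgeR adjusted p = 0.217).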
